A study of Homo sapiens with 6 samples.

Results

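The expression of 5 keratin genes, KRT14, KRT16, KRT17, KRT19 and KRT34, was examined by RNA-seq in KLE cells with and without LATS1/2. KLE is an established human endometrial carcinoma cell line. LATS1 and LATS2 are kinases of the Hippo pathway that phosphorylate the transcriptional co-activators YAP and TAZ, and the study asked which genes alter their expression when both kinases are lost. The parental group (genotype WT) and the LATS1/2 double knockout group, made by CRISPR/Cas9, had 3 libraries each, and no treatment was given in the labels for either group. Knockout clones were grown from single cells by limiting dilution. How many clones the 3 LATS1/2-KO libraries came from was not given in the sources used here, so a property of a clone and an effect of the knockout cannot be told apart. Nothing states that the libraries of a group came from separate cultures, so p-values measure only the spread between these libraries, which may be technical.

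The 5 keratins were taken by symbol from a deposited table of 414 genes. They were all of the keratins in it. The table holds genes that the authors had called changed, by more than 2-fold, so a difference between the groups was a condition for a keratin to be there and its tests here are no independent evidence of it. What the listing did not fix is the level of each keratin, its spread among libraries, and how the 4 lower keratins moved against each other. Since KRT34 was listed as higher, its shift against each of the others was fixed by the listing. Keratins outside the table, LATS1 and LATS2 were not analysed here. Of 11 epithelial carcinoma markers, KRT19 was listed, and none of 9 fibroblast, 5 endothelial or 6 leukocyte markers was, so the labelled cell type could be checked on KRT19 alone. Its count was at least 5505 in every library.

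Keratins are the intermediate filament proteins of epithelial cells. A filament is built from pairs of a type I and a type II chain, and the 5 genes here all encode type I chains. KRT14 is the type I keratin of the basal layer of stratified epithelia, where it pairs with KRT5. KRT16 and KRT17 are induced in wounded and stressed epidermis, and KRT17 is also found in many carcinomas. KRT19 is a keratin of simple and glandular epithelia and has almost no tail domain. KRT34 is a hair keratin of the hair shaft. In endometrial glands the keratins of simple epithelia prevail.

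All 5 genes lie on the minus strand of chromosome 17 in the type I keratin cluster (GRCh38, GENCODE version 29), within 247193 bases that overlap 14 protein-coding keratin genes. In order along the chromosome these are KRT34 (chr17:41377650-41382403), KRT19 (chr17:41523617-41528308), KRT14 (chr17:41582279-41586921), KRT16 (chr17:41609778-41615899) and KRT17 (chr17:41619441-41624842). KRT16 and KRT17 are neighbours 3541 bases apart, and KRT14 is 22856 bases from KRT16. KRT34 stands 141213 bases from KRT19, its nearest listed keratin. Within 1 Mb of this span the table listed only TNS4 and ENSG00000279806 besides the keratins. KRT14, KRT16 and KRT17 have 8 exons each, KRT34 has 7 and KRT19 has 6.

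KRT14, KRT16 and KRT17 are close in sequence, which bears on how reads could be assigned to them. Their coding sequences are identical at 88.6% of aligned bases between KRT14 and KRT16, 84.7% between KRT14 and KRT17 and 79.3% between KRT16 and KRT17. The longest run shared without a difference by KRT14 and KRT16 is 158 bases of the first exon, shown here because a 150-base read that falls inside it belongs to either gene. It lies at chr17:41586368-41586525 in KRT14 and chr17:41612216-41612373 in KRT16. The matching stretch of KRT17, at chr17:41624136-41624293, differs from it at 18 bases, set in capitals. The sequences are given 5′ to 3′ on the coding strand, from the GRCh38 reference.
KRT14: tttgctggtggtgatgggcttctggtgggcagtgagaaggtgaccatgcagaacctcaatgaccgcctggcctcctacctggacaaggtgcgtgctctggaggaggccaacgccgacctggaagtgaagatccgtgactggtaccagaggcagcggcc
KRT16: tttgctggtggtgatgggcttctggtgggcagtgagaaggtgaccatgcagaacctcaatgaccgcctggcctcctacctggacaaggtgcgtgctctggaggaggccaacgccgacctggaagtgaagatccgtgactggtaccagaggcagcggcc
KRT17: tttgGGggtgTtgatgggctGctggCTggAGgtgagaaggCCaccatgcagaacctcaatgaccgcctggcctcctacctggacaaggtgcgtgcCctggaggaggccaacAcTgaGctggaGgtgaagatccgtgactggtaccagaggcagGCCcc

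Over the whole transcripts, windows of 150 bases that also occur in a transcript of another gene made up 0.595% of KRT14 and 0.736% of KRT16, and there were 0 in KRT17, KRT19 and KRT34. With windows of 50 bases the shared part was 23.8% of KRT14, 22% of KRT16, 16% of KRT17, 11.4% of KRT34 and 1.79% of KRT19. The partners of KRT14 and KRT16 at that length were each other, KRT17, the pseudogenes KRT16P1 to KRT16P6 and pseudogenes of KRT17. Those of KRT34, which had few counts in parental cells, were KRT31, KRT33A and KRT33B. How reads that matched several genes were counted was not given in the sources used here. The split of counts between KRT14, KRT16 and their copies is therefore uncertain, as is that between KRT34 and its partners. KRT19 is the keratin least open to this.

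Parental replicates 1, 2 and 3 held 4064052, 3252765 and 3008692 counts of the 414 listed genes. LATS1/2-KO library 5 held 1862422, library 6 held 613161 and library 7 held 1180727, each library being named by the number of its column. These sums hold listed genes alone and are not library depths. Parental replicate 1 stood apart from its group. Among 323 genes with at least 50 counts in a parental library, 76 departed more than 4-fold from the mean of the other parental libraries in replicate 1, and 71 of them were higher. Parental replicates 2 and 3 had 51 and 52 such departures, of which 1 and 3 were higher. For the keratins the departure of replicate 1 was smaller, with log2 differences of 0.47 for KRT14, -0.19 for KRT16 and -0.33 for KRT17 and KRT19. Results are therefore given with and without this library.

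Counts were divided by a scale per library. Within a group the scale was the median of a library's ratios to the geometric mean of its group. Between the groups it was set from the shape of the table, since a list of changed genes has no unchanged ones. With parental replicates 2 and 3, an interval of 2.00 log2 units held none of 199 genes with at least 50 counts, with 108 genes below and 91 above, and its centre was taken as no change. The interval was chosen as empty without replicate 1, so its emptiness there was fixed by that choice. With replicate 1 included, 38 of the 199 genes lay inside it. Leaving out replicate 2 or 3 instead was not examined for this gap. Its width without replicate 1 is that which a 2-fold list rule would leave, so calls made without replicate 1 stand close to the listing itself. The position of a keratin relative to another one does not depend on this choice. Its own fold change does.

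**Figure D1:**
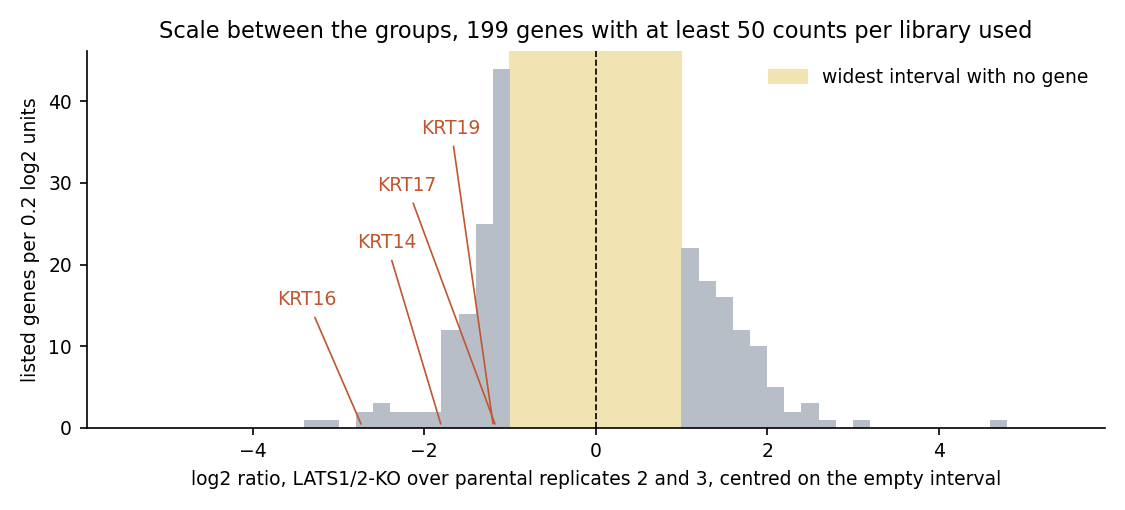
Number of listed genes (vertical axis) by log2 ratio of mean scaled counts, LATS1/2-KO over parental replicates 2 and 3 (horizontal axis, log2 units), with the empty interval shaded. KRT17 (-1.16) and KRT19 (-1.19) lie near its lower edge, with other genes between, while KRT14 (-1.79) and KRT16 (-2.72) lie further out. KRT34 had fewer than 50 counts in every parental library and is not drawn.

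On this scale, KRT16 was lower in LATS1/2-KO cells by 6.30-fold, KRT14 by 3.91-fold, KRT19 by 2.13-fold and KRT17 by 2.08-fold. KRT34 was 12-fold higher. When libraries were scaled by the sum of listed counts instead, the differences of KRT19 and KRT17 vanished (log2 fold changes -0.035 and 0.0027). KRT16, KRT14 and KRT34 were then at -1.60, -0.89 and 4.66. With all 6 libraries on the scale of the empty interval, KRT16 fell (log2 fold change -2.66, standard error 0.18, edgeR adjusted p = 0.0176). It was the 1 keratin of 5 that passed the test. The test required an adjusted p under 0.05 over 20000 genes and a log2 fold change beyond 1. KRT16 lost this call with median-of-ratios factors (edgeR adjusted p = 0.0852) and with the sum of listed counts (edgeR adjusted p = 0.151). It also lost it without any 1 library other than parental replicate 1. By the same test with all 6 libraries on the scale of the empty interval, 7.73% of all listed genes were called, 3.38% as lower and 4.35% as higher. Without parental replicate 1 the folds were 6.58, 3.47, 2.28 and 2.23 lower in the same order and 10.2 higher for KRT34. In that fit 4 keratins fell, KRT14, KRT16, KRT17 and KRT19, against 24.6% of listed genes called in either direction and 13.8% called lower. In bulk RNA, fewer cells that express a gene and less of its RNA per cell cannot be told apart.

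KRT17 had the largest count of any listed gene in every library. Its counts were 612841, 621650 and 541890 in parental replicates 1, 2 and 3 and 337412, 116774 and 178747 in LATS1/2-KO libraries 5, 6 and 7. It took 15.1%, 19.1% and 18.0% of all listed counts in the parental libraries and 18.1%, 19.0% and 15.1% in the LATS1/2-KO libraries. Its share of the listed counts thus overlapped between the groups. Scaled counts of KRT17 were 417177, 500809 and 544740 in parental cells (487575 ± 64803, SD, n = 3) and 252807, 235003 and 215033 in LATS1/2-KO cells (234281 ± 18897, SD, n = 3). On this scale the lowest parental library, replicate 1, was still above the highest LATS1/2-KO library. Its log2 fold change of -1.06 (standard error 0.15) did not pass the test with all 6 libraries (edgeR adjusted p = 0.128). Without replicate 1 the value was -1.16 (standard error 0.13) and passed (edgeR adjusted p = 0.0338).

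KRT19, the keratin of simple epithelia, had 30967, 32635 and 26496 counts in parental replicates 1, 2 and 3 and 16722, 5505 and 9287 in LATS1/2-KO libraries 5, 6 and 7. After scaling these were 21080, 26291 and 26635 (24669 ± 3113, SD, n = 3) against 12529, 11079 and 11172 (11593 ± 812, SD, n = 3). The groups did not overlap, and replicate 1 was again the lowest parental library. The log2 fold change of KRT19 was -1.09 (standard error 0.14, edgeR adjusted p = 0.0992) with all libraries and -1.19 (standard error 0.14, edgeR adjusted p = 0.0363) without replicate 1. It was -0.035 when libraries were scaled by the sum of listed counts.

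KRT16 had 1786, 1824 and 1301 counts in parental replicates 1, 2 and 3, and 238, 121 and 176 in LATS1/2-KO libraries 5, 6 and 7. Scaled counts were 1216, 1469 and 1308 in parental cells (1331 ± 128, SD, n = 3) and 178, 244 and 212 in LATS1/2-KO cells (211 ± 32.6, SD, n = 3). Every parental library was far above every LATS1/2-KO library, and replicate 1 lay close to the others. KRT16 ranked 12th of the 414 listed genes by p and 62nd of 215 lower genes by size of change, and 11th and 49th of 190 without replicate 1. Its log2 fold change stayed between -2.77 and -2.55 when any 1 library was left out, yet of these fits only the one without parental replicate 1 kept the call (edgeR adjusted p = 0.00531) and without any other library the adjusted p ran from 0.129 to 0.195. In those 5 fits edgeR called 0 of the 414 genes at all, while 275 to 290 genes, with all 5 keratins among them, had an unadjusted p under 0.05. DESeq2 was run on all 6 libraries alone.

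KRT14, the basal keratin, had 4049, 2301 and 2119 counts in parental replicates 1, 2 and 3 and 773, 352 and 363 in LATS1/2-KO libraries 5, 6 and 7. Its scaled counts were 2756, 1854 and 2130 (2247 ± 462, SD, n = 3) in parental cells and 579, 708 and 437 (575 ± 136, SD, n = 3) in LATS1/2-KO cells. Here replicate 1 was the highest parental library, opposite to the other lower keratins. For KRT14 the log2 fold change was -1.97 (standard error 0.25, edgeR adjusted p = 0.0992), and -1.80 (standard error 0.21, edgeR adjusted p = 0.0338) without replicate 1. The fold between group means was 3.91 with replicate 1 and 3.47 without it.

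KRT34, the hair keratin, had few counts in parental cells. It had 6, 4 and 12 counts in the parental libraries and 106, 34 and 71 in the LATS1/2-KO libraries. Scaled counts were 4.08, 3.22 and 12.1 (6.46 ± 4.87, SD, n = 3) against 79.4, 68.4 and 85.4 (77.8 ± 8.62, SD, n = 3). All LATS1/2-KO libraries were above all parental ones, and the parental values spread 3.74-fold, with replicate 3 and not replicate 1 apart. Its log2 fold change of 3.58 (standard error 0.69) did not pass the edgeR test with all libraries (adjusted p = 0.326) or without replicate 1 (3.35, standard error 0.69, adjusted p = 0.224). It ranked 40th of 199 higher genes by size with all libraries and 89th of 224 without replicate 1. Without parental replicate 3, the highest of its group, the log2 fold change was 4.37.

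**Figure D2:**
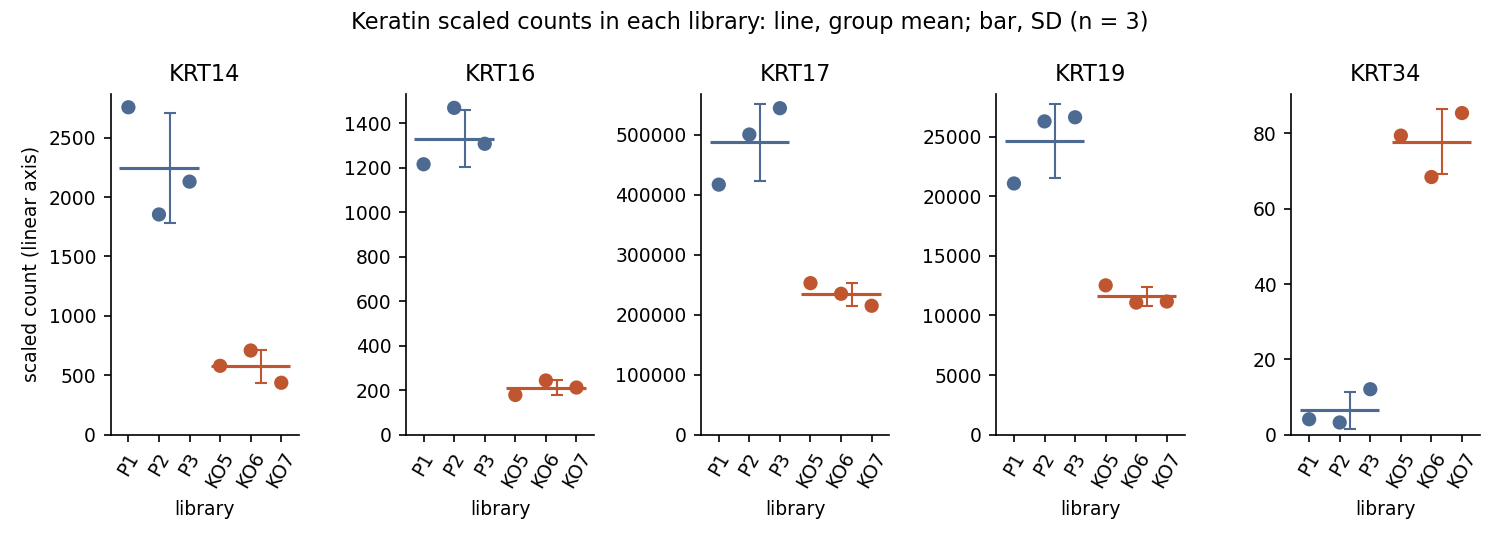
Scaled counts (vertical axes, linear, from 0) of the 5 keratins in parental replicates 1 to 3 (P1 to P3) and LATS1/2-KO libraries 5 to 7 (KO5 to KO7). Points are libraries, lines are group means and bars are SD (n = 3). For KRT14, KRT16, KRT17 and KRT19 every LATS1/2-KO point lies below every parental point, and for KRT34 every one lies above. This holds on the scale set by the empty interval. On the sum of listed counts the log2 fold change is 0.0027 for KRT17 and -0.035 for KRT19.

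On the scale set by the empty interval, the groups did not overlap for any of the 5 keratins, with all libraries or without parental replicate 1. As shares of the listed counts, KRT17 and KRT19 overlapped, with 0.762%, 1.00% and 0.881% for KRT19 in parental cells and 0.898%, 0.898% and 0.787% in LATS1/2-KO cells. An exact two-sided permutation test of 3 against 3 libraries cannot go below p = 0.1, which was its value for each keratin. The share of all listed genes without overlap was 44.2% lower and 35.7% higher with all 6 libraries, and 45.7% lower and 51% higher without replicate 1, so this separation was common in the table. Adjusted over the listed genes alone, edgeR called 5 of 5 keratins, but also 70.3% of all listed genes, 41.5% as lower and 28.7% as higher. Without replicate 1 the same adjustment called 5 of 5 keratins and 97.1% of listed genes, 45.9% as lower and 51.2% as higher. DESeq2 with the same scales and 20000 genes likewise called 5 of 5, with 53.1% of listed genes called, 30.7% as lower and 22.5% as higher. By size, the keratins were on both sides of the median of their direction. The median log2 fold change was -1.57 over the 215 lower genes, beyond that of KRT17 and KRT19 and short of that of KRT14 and KRT16. KRT34 was beyond the median of 1.75 over the 199 higher genes.

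**Figure D3:**
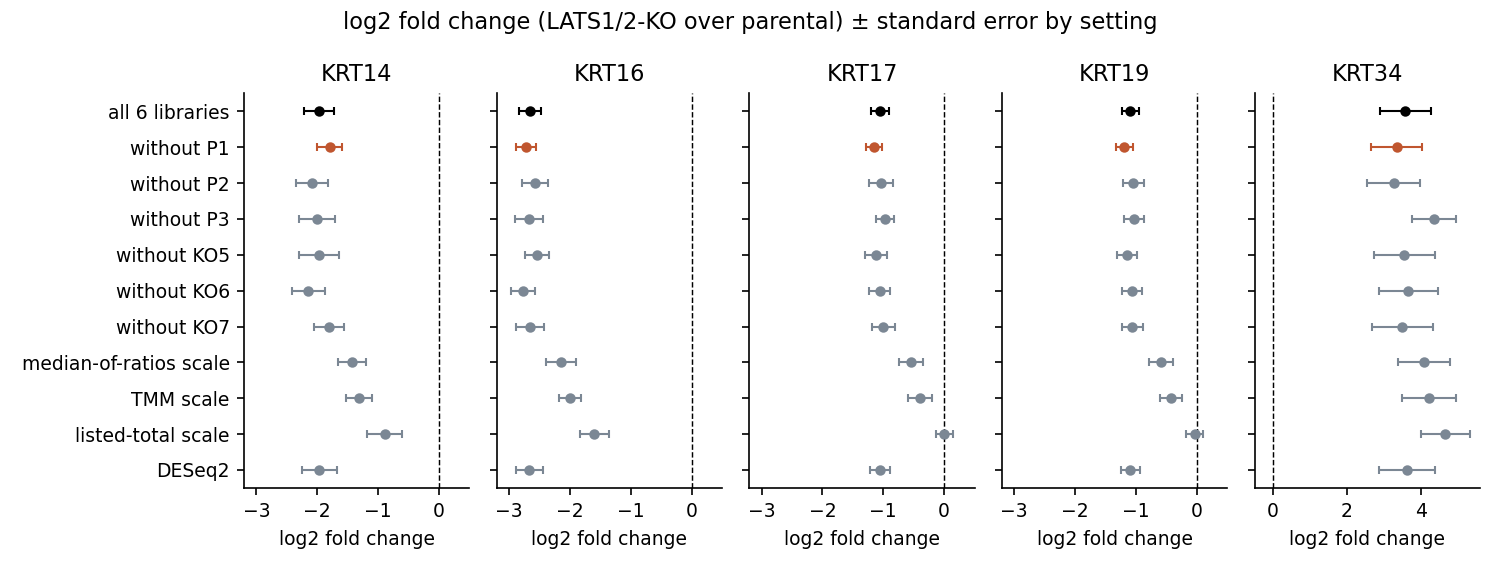
Log2 fold change, LATS1/2-KO over parental (horizontal axes, log2 units), with its standard error as bar, for each keratin by setting (rows): all libraries, without each library in turn, 3 other scales, and DESeq2. Leaving out a library moved KRT16 between -2.77 and -2.55, whereas scaling by the sum of listed counts moved it to -1.60 and took KRT17 to 0.0027 and KRT19 to -0.035. KRT34 ranged from 3.26 to 4.66.

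The scale between the groups set the size of these differences. Relative to the scale used, TMM over the listed genes shifted log2 fold changes upward by 0.66, median-of-ratios size factors by 0.52 and the sum of listed counts by 1.05. KRT16 and KRT14 remained below 0 under all 3, and TMM put them at -2.0 and -1.31. Median-of-ratios factors gave -2.15 and -1.43, and the sum of listed counts gave -1.60 and -0.89. Of the 3 scales, only TMM let KRT16 pass the test (edgeR adjusted p = 0.0416). KRT14 passed it by none of them. KRT17 was at -0.40 under TMM and -0.55 under median-of-ratios factors, and KRT19 at -0.43 and -0.59. These scales take changed genes as their reference.

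A ratio of 2 keratins within a library is free of any scale. KRT17 and KRT19 kept nearly the same ratio. There were 19.8, 19.0 and 20.5 KRT17 counts per KRT19 count in parental replicates 1, 2 and 3, and 20.2, 21.2 and 19.2 in LATS1/2-KO libraries 5, 6 and 7. The groups overlapped (exact permutation p = 0.6), and the log2 fold change of KRT19 relative to KRT17 was -0.031 with a 95% interval from -0.27 to 0.21. A difference between their changes within these bounds was not detectable with 3 libraries per group. Overlap was common among lower genes. Of 5778 pairs of the 108 lower genes used for the scale, only 27.7% had ratios that did not overlap between the groups. An overlapping ratio was thus not particular to KRT17 and KRT19.

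KRT16 was lower relative to KRT17 in LATS1/2-KO cells. There were 343, 341 and 416 KRT17 counts per KRT16 count in parental cells and 1415, 961 and 1013 in LATS1/2-KO cells. The groups did not overlap, and parental replicate 1 was next to replicate 2. The log2 fold change of KRT16 relative to KRT17 was -1.60 (standard error 0.22, 95% interval -2.21 to -0.99, edgeR unadjusted p = 0.000501). Adjusted over 20000 genes this did not pass (edgeR adjusted p = 0.149), and adjusted over the listed genes alone it did (edgeR adjusted p = 0.00309). Relative to KRT17, 9.18% of listed genes were called over 20000 genes, 0.483% as lower and 8.7% as higher. Over the listed genes alone it was 42%, with 9.66% lower and 32.4% higher.

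For KRT14, there were 151, 270 and 256 KRT17 counts per KRT14 count in parental cells and 436, 331 and 492 in LATS1/2-KO cells. Parental replicate 1 was low, but the groups did not overlap with or without it. The log2 fold change relative to KRT17 was -0.96 (standard error 0.30, 95% interval -1.79 to -0.13, edgeR unadjusted p = 0.0212, adjusted p = 1) and -0.64 (standard error 0.19) without replicate 1. With the t quantile for 4 degrees of freedom, the interval took in 0 without LATS1/2-KO library 5 (-1.96 to 0.14) and without library 7 (-1.81 to 0.13). A larger quantile, for the fewer libraries of such fits, could add others. Against KRT19 the value was -0.91 (95% interval -1.80 to -0.034), and the interval took in 0 in 4 of the 6 fits that left out a library, with that without parental replicate 1 among them (-1.22 to 0.021). KRT14 and KRT16, the pair with the most similar sequence, had 2.27, 1.26 and 1.63 KRT14 counts per KRT16 count in parental cells and 3.24, 2.90 and 2.06 in LATS1/2-KO cells. With replicate 1 the groups overlapped (exact permutation p = 0.2), and without it they did not.

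KRT34 had the opposite direction to the rest. KRT17 counts per KRT34 count were 94283, 138145 and 43351 in parental cells and 3168, 3385 and 2500 in LATS1/2-KO cells. The log2 fold change of KRT34 relative to KRT17 was 4.68 (standard error 0.64), given as a description because the listing of KRT34 as higher and KRT17 as lower fixed a shift of this direction. Among the 6 pairs of the other keratins, 4 had group ratios that did not overlap, each at the smallest p the exact permutation test can give, 0.1. Without replicate 1 it was 5 of 6. Over all 5778 pairs of the 108 lower genes used for the scale, 27.7% did not overlap with all libraries and 38.4% without replicate 1. With all libraries the remaining pairs were KRT17 with KRT19 and KRT14 with KRT16. The 4 that did not overlap were KRT14 and KRT16, each against KRT17 and against KRT19. As KRT17 and KRT19 kept nearly the same ratio, a pair with KRT19 nearly repeats that with KRT17. Shifts in mean log2 ratio were -0.92 and -0.89 for KRT14, and -1.61 and -1.58 for KRT16. The pairs are thus not independent, and their count is no measure of an excess over the share of all pairs.

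**Figure D4:**
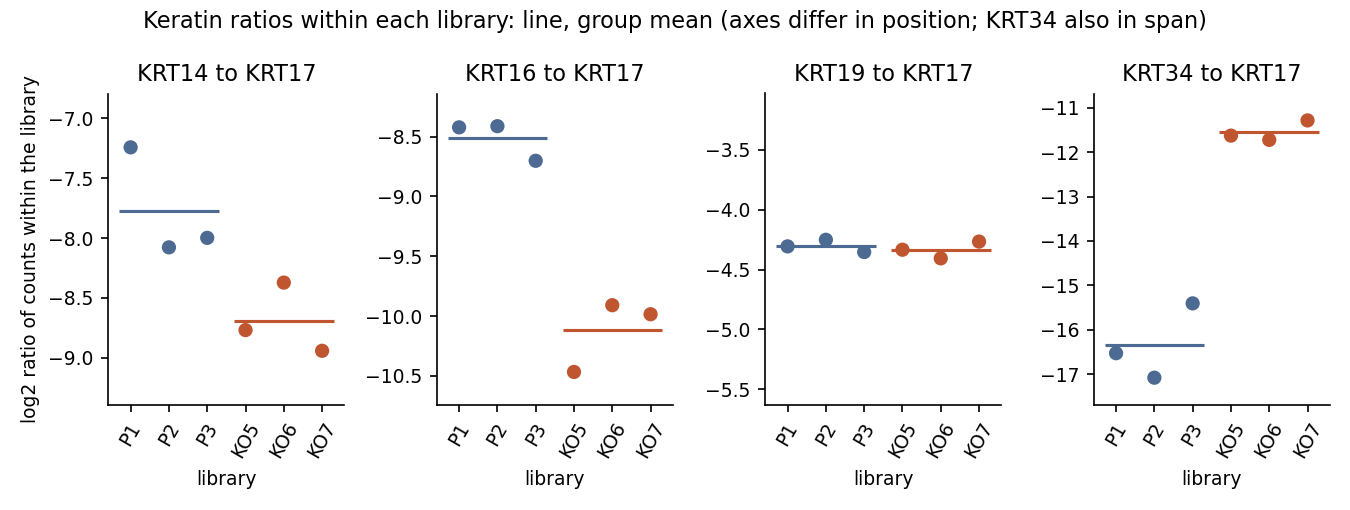
Log2 ratio of the counts of 4 keratins to KRT17 within each library (vertical axes, log2 units, which differ in position and, for KRT34, in span). Points are libraries and lines are group means (n = 3). For KRT19 the groups overlap (log2 fold change -0.031), KRT14 and KRT16 are lower in LATS1/2-KO libraries and KRT34 is higher.

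Levels of the 5 keratins were compared per kilobase of transcript. The order of scaled counts per kilobase was KRT17, KRT19, KRT14, KRT16 and KRT34 in all 6 libraries. Parental means were 295321 for KRT17, 17747 for KRT19, 1352 for KRT14, 810 for KRT16 and 3.69 for KRT34. LATS1/2-KO means of the same quantity were 141903, 8341, 346, 128 and 44.4. Neighbours in this order did not overlap within either group, so the ranking of the 5 keratins was the same in parental and LATS1/2-KO cells. By ratio of the group means, only the step from KRT16 to KRT34, the lowest of the order, became smaller.

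KRT17 made up nearly all of the counts of the 5 keratins. Its share was 94.33%, 94.42% and 94.77% in the parental libraries and 94.98%, 95.10% and 94.75% in the LATS1/2-KO libraries. KRT16 took between 0.228% and 0.277% in parental libraries and between 0.0670% and 0.0985% in LATS1/2-KO libraries. KRT34 took at most 0.00210% in parental cells (replicate 3, exact Clopper-Pearson 95% interval 0.00108% to 0.00367%) and at least 0.0277% in LATS1/2-KO cells (library 6, 0.0192% to 0.0387%). Those intervals cover counting error only.

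Other genes of the epithelial cytoskeleton and of its attachment were read from fixed lists. Of 28 type I keratins the 5 described here were listed, and of 26 type II keratins, the partners of these chains, none was. None of 15 other intermediate filament genes, 5 plakins, 16 cornified envelope genes or 17 epithelial regulators was listed either. Genes that were not listed were not analysed here, which says nothing about their level.

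Of 7 hemidesmosome and laminin-332 genes, 2 were listed, both lower, with a median log2 fold change of -1.31. The median over all 414 genes was -0.35, which mixes lower and higher genes. Over the 215 lower genes it was -1.57, and both genes were short of that in size. Without parental replicate 1 the median was -1.33 for the 2 genes and 1.17 over all genes, so that library turned the sign of the median over all genes. Neither gene was called by edgeR over 20000 genes in either case, although with all libraries both had an unadjusted p under 0.05, as had 74.9% of all listed genes. ITGB4, the integrin beta chain of hemidesmosomes, had 1296, 1356 and 1028 counts in parental cells and 699, 286 and 192 in LATS1/2-KO cells (log2 fold change -1.18, standard error 0.36, edgeR adjusted p = 1). LAMB3, the beta chain of laminin-332, had 1440, 1175 and 801 counts against 438, 222 and 189 (-1.45, standard error 0.28, edgeR adjusted p = 0.329). For both genes the scaled counts of the groups did not overlap, as was so, in this direction, for 44.2% of listed genes. Of 13 desmosome genes PKP2, a plaque protein, was listed, and its counts of 72, 19 and 4 in parental and 73, 16 and 74 in LATS1/2-KO libraries overlapped (log2 fold change 1.36, standard error 0.97, edgeR adjusted p = 1). Without parental replicate 1 the scaled counts of PKP2, 15.3 and 4.02 against 54.7, 32.2 and 89.0, did not overlap. In this direction the same was so for 51% of listed genes. The log2 fold change of PKP2 was then 2.58 (standard error 0.82, edgeR adjusted p = 1 over 20000 genes and 0.0211 over the listed genes alone). Over the listed genes alone, 97.1% of them were called without that library, 51.2% as higher.

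The S100 family, small calcium-binding proteins of which several are abundant in epithelia, had 4 of 19 members listed, all with lower values in LATS1/2-KO cells (median log2 fold change -1.15), as had 51.9% of all listed genes. None of the 4 passed edgeR with all libraries, when 3.38% of listed genes were called lower, although all 4, like 74.9% of listed genes, had an unadjusted p under 0.05. By the same test 1 of 4 passed without parental replicate 1, when 13.8% were. S100A2 had scaled counts of 8006, 9886 and 10873 in parental cells and 4658, 4075 and 4757 in LATS1/2-KO cells, and it was the one that fell without replicate 1 (log2 fold change -1.21, standard error 0.14, edgeR adjusted p = 0.0312). S100A3 had the largest difference of the 4 (-2.0, standard error 0.30, edgeR adjusted p = 0.144). S100A4 (-1.16) and S100A13 (-1.13) were near S100A2 in size.

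For each keratin the 3 listed genes with the most similar pattern over the 6 libraries were found, among 199 genes whose count reached 50 in each library, by the root-mean-square distance of their centred log2 scaled counts. All points share the same libraries and scales, so likeness is a description. KRT17 and KRT19 were each other's nearest gene, at 0.0526 log2 units. Next to KRT17 came IFI30, an interferon-gamma-inducible lysosomal thiol reductase, at 0.0720, and FOLR1, the folate receptor alpha, at 0.0742. Next to KRT19 came the translation factor EIF5A at 0.0561 and S100A2 at 0.0775.

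The neighbours of KRT16 and KRT14 were less close. For KRT16 they were ENO3, an enolase, at 0.248, SLPI, a secreted protease inhibitor, at 0.251, and AKR1C3, an aldo-keto reductase, at 0.284. For KRT14 they were MFAP2, a microfibril-associated protein, at 0.191, OAS1, an interferon-induced antiviral enzyme, at 0.236, and CAPG, an actin-capping protein, at 0.250. Like KRT14, these genes had their highest parental count in replicate 1, which also had the largest scale (1.47). Parental counts were 1008, 730 and 647 for MFAP2, 1559, 771 and 539 for OAS1 and 48458, 36923 and 32612 for CAPG. In LATS1/2-KO cells OAS1 had 214, 103 and 143 counts. KRT34 had fewer counts than this minimum, and the nearest genes above it were BMP4, a secreted ligand of the TGF-beta family, at 0.569, ENSG00000232110 at 0.642 and SNAPC1 at 0.775. BMP4 had 123, 143 and 149 counts in parental cells and 1118, 403 and 742 in LATS1/2-KO cells, and it rose (log2 fold change 2.87, standard error 0.26, edgeR adjusted p = 0.0361). With no minimum, a search over the other 413 listed genes added after seeing the data, closer genes with low counts were found, SPANXB1 at 0.267, EDN1, the precursor of a vasoconstrictor peptide, at 0.334 and OLR1, a scavenger receptor, at 0.399. SPANXB1, a member of a family of near-identical copies, had 5, 5 and 15 counts in parental cells and 133, 30 and 59 in LATS1/2-KO cells. That search also put RERG at 0.258 in place of AKR1C3 for KRT16 and named the same genes for the other keratins.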

How the data were processed

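RNA of both groups of KLE cells was reverse transcribed with oligo-dT primers and sequenced as paired-end reads of 150 bases. Per the submitters' processing notes, the tools were cutadapt, HISAT2, StringTie and DESeq2 and the build was hg19, and the study used DESeq2 to find changed genes. Versions, the strand setting and the roles of the other tools were not given in the sources used here. The authors deposited 1 table of raw whole-number counts per gene for 6 libraries, which holds only genes they had called. Sums of listed counts ranged from 613161 to 4064052 per library, and full depths were not used here. LATS1/2-KO columns are numbered 5, 6 and 7, match no single sample label and were used as libraries of the group. The 6 other per-sample columns, of values the header calls TPM, were not used, nor were the columns of the authors' own comparison (log2 fold change, p and adjusted p).

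Counts were scaled by the median ratio within a group (genes with at least 50 counts) and between groups by the centre of the widest log2 interval without a gene, with at least 20% of genes on either side, from parental replicates 2 and 3. Scales were kept when a library was left out. Counts were fitted in edgeR 4.0.16 (R 4.3.3; estimateDisp, glmQLFit, glmQLFTest, no covariates, no filter), two-sided, with Benjamini-Hochberg adjustment over 20000 genes, in which unlisted genes were given the largest possible p-value. The standard error is the absolute log2 fold change divided by the square root of F. A gene was called where the adjusted p was under 0.05 and the log2 fold change exceeded 1 in size. For relative changes the KRT17 count served as library size, and 95% intervals used a t quantile with 4 degrees of freedom. The same quantile was kept when a library was left out, although fewer residual degrees of freedom remain then. Adjusting relative changes over the 4 other keratins alone had been planned and was not done. Per-library ratios used a pseudocount of 0.5. Fits and scales were tested on simulated data. Alternatives were DESeq2 1.42.0, 3 other scales, a minimum of 10 counts, adjustment over the listed genes, KRT19 as reference and leaving out each library.

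Named genes were the 5 keratins, listed members of fixed gene lists and the 3 nearest genes of each keratin. The keratins and lists were chosen with earlier results of these data known. Positions and sequences came from GENCODE version 29 (GRCh38), in which 410 of 414 identifiers were found by name without version.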

Additional observations from a re-analysis of the deposited data

How the results depend on the processing

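The direction of KRT14, KRT16 and KRT34 was kept in every alternative that gave a value. Scaled by the sum of listed counts, KRT19 (log2 fold change -0.035, standard error 0.14) and KRT17 (0.0027, standard error 0.14) had no direction beyond their standard errors. The sign of KRT17 reversed there, and both genes kept their direction in every other alternative. KRT16 lost its call with median-of-ratios factors (-2.15, edgeR adjusted p = 0.0852) and with the sum of listed counts (-1.60, adjusted p = 0.151), and kept it with TMM (-2.0, adjusted p = 0.0416). KRT34 had under 10 counts in some libraries and gets no value with that minimum. Leaving out a parental replicate moved KRT14 between -2.09 and -1.80 and KRT16 between -2.73 and -2.58, and KRT16 was at -2.66 without LATS1/2-KO library 7. Over all 6 libraries, leaving out 1 gave ranges of -2.14 to -1.80 for KRT14, -2.77 to -2.55 for KRT16, -1.16 to -0.97 for KRT17, -1.19 to -1.03 for KRT19 and 3.26 to 4.37 for KRT34. Calls in these fits ranged from 0 to 4 keratins, 0 to 45 higher and 0 to 57 lower genes, and the upper end was reached only without parental replicate 1. Relative to KRT17 the ranges were -1.13 to -0.64 for KRT14, -1.70 to -1.44 for KRT16, 4.36 to 5.31 for KRT34 and -0.067 to 0.0033 for KRT19, which changed sign without LATS1/2-KO library 6 (0.0033).

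DESeq2 brought KRT14 (-1.97), KRT17 (-1.06), KRT19 (-1.09) and KRT34 (3.63) past the threshold, as did adjustment over the listed genes alone for KRT14 (-1.97), KRT17 (-1.06), KRT19 (-1.09) and KRT34 (3.58). Chosen after seeing the data, that adjustment without parental replicate 1 called KRT14 (-1.80), KRT17 (-1.16), KRT19 (-1.19) and KRT34 (3.35). Against 1 keratin, 18 higher and 14 lower genes called, the counts were 5, 93 and 127 with DESeq2, 5, 119 and 172 over the listed genes alone, and 5, 212 and 190 for the added alternative. With TMM 34 genes were higher and 4 lower, with median-of-ratios factors 0 keratins were called, 17 genes were higher and 1 lower, and with the sum of listed counts 0 keratins were called, 42 genes were higher and 2 lower. At an unadjusted edgeR p under 0.05, these last 2 scales left 5 and 3 keratins, and 71.0% and 52.7% of all listed genes. The cause of these differences was not tested, beyond the shift that each scale makes. No paired analysis was possible because no LATS1/2-KO column has a number (5, 6 or 7) found among the replicate labels. KRT34 had the fewest counts of the 5 keratins, with 4 to 12 per parental library.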
